A study of Mus musculus with 14 samples.

Results

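The clustered replication-dependent histone genes are the genes of the Hist1, Hist2, Hist3 and Hist4 clusters, which encode the linker histone H1 and the core histones H2A, H2B, H3 and H4. They were taken as every row of the gene table whose symbol begins with Hist1h, Hist2h, Hist3h or Hist4h and that holds any count. This gave 68 of 24015 rows, and none of the 68 was 0 in all libraries. They comprise 6 H1, 18 H2A, 19 H2B, 12 H3 and 13 H4 genes. Among the H2B genes, Hist3h2bb-ps is annotated as a processed pseudogene without a coding sequence. It is kept in the H2B counts and sums in CPM, but has no level per kb of coding sequence. Of these, 54 belong to Hist1 on mouse chromosome 13, 10 to Hist2 on chromosome 3, 3 to Hist3 on chromosome 11 and 1 to Hist4 on chromosome 6. Together they took 0.00431 to 0.0102% of the counts of a library.

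Core histones form the protein spool around which DNA is wound, and H1 binds where the DNA enters and leaves it. Most genes of these clusters are transcribed mainly in S phase, when new DNA must be packaged. Their usual mRNAs have no introns and no poly(A) tail. They end just after a short stem-loop, which is bound by the stem-loop binding protein Slbp and is cut with the help of the U7 small nuclear RNP. A few of the genes also give polyadenylated mRNAs that run past the stem-loop, mainly in cells that have stopped dividing. The TruSeq RNA Sample Preparation Kit v2 used here selects RNA by its poly(A) tail, so the counts cover whatever histone RNA passes such a selection.

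The RNA came from mouse embryonic fibroblasts of strain 129s2, primary connective-tissue cells of day 14.5 embryos at passage 3 to 4, which spent 18 hours in glucose-free or normal medium. The 4 groups are SirT7-/- cells in glucose-free medium (KO-GS, n = 3), SirT7-/- cells in normal medium (KO-NT, n = 4), wild-type cells in glucose-free medium (WT-GS, n = 3) and wild-type cells in normal medium (WT-NT, n = 4). SirT7 is a nuclear, NAD-dependent sirtuin, and the design crosses its loss with glucose starvation. Libraries are named by group and replicate, such as KO-NT 4. Nothing in the labels says whether replicates are separate embryos or cultures, or whether embryos were pooled, so p-values measure the spread between these libraries, which may be technical.

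Library totals lay between 59788270 and 91607861 estimated counts. A count of 0 allows up to 3 counts, which is 0.0502 CPM (the count scaled to the sum of all counts of its library) at the lowest depth and 0.0327 CPM at the highest. These limits cover counting error only. Sirt7 stood at 0.301 to 1.41 CPM in the SirT7-/- libraries and at 16.9 to 23.1 CPM in the wild-type libraries. Fibroblast markers were present throughout, with all 12 listed genes in the table and summed levels of 27518 to 47566 CPM in KO-GS, 30347 to 55116 CPM in KO-NT, 26707 to 28462 CPM in WT-GS and 47972 to 55874 CPM in WT-NT. The 15 listed macrophage markers summed to 122 to 1176 CPM in KO-GS, 432 to 789 CPM in KO-NT, 13.8 to 384 CPM in WT-GS and 336 to 2213 CPM in WT-NT, and none of the 15 was 0 in all libraries. The share of macrophage RNA in the histone values was not tested. Of the skeletal muscle markers, 1 of 12 was 0 everywhere and the sums were 84.2 to 249.7 CPM over all libraries.

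The library labelled KO-GS 3 and the library labelled KO-NT 4 go against their medium. Hspa5, the endoplasmic reticulum chaperone BiP and a standard mark of glucose shortage, stood at 6251, 5654 and 1066 CPM in KO-GS 1 to 3, against 1556, 1437, 1457 and 6333 CPM in KO-NT 1 to 4. In wild type it stood at 7435, 6496 and 6206 CPM in WT-GS, against 1449, 1479, 1456 and 1065 CPM in WT-NT. All groups are used as labelled, and a second value of each comparison leaves out these 2 discordant libraries.

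The 3′ ends of the genes differ in a way that bears on which of them a poly(A) selection can catch. In the GENCODE M21 transcripts, a stem-loop motif, which reads GG, any 2 bases, CTT, any base, T, any base, AG, any 2 bases and CC and was searched on the transcript strand, was present in 46 of the 68 genes, against 136 of 21901 protein-coding genes (0.621%). By class these were 4 of 6 H1, 11 of 18 H2A, 10 of 19 H2B, 9 of 12 H3 and 12 of 13 H4 genes. The poly(A) signal AATAAA lay in the last 50 bases of an annotated transcript in 15 of the 68 genes, against 65.7% of protein-coding genes. Both were found in 12 genes and neither in 19, of which 13 are annotated only as far as the end of the coding sequence. The stem-loop is shown for a gene of each class whose values in every library are given, 5′ to 3′ as DNA, with the 16 bases of the motif in capitals.
Hist1h1c: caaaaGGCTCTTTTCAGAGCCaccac
Hist2h2aa1: aaaaaGGCTCTTTTCAGAGCCaccca
Hist1h2bk: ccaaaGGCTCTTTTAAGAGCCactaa
Hist1h3b: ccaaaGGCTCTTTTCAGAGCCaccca
Hist1h4i: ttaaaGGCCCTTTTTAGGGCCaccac
Hist1h1c, Hist2h2aa1 and Hist1h3b share the same 16 bases, while Hist1h2bk and Hist1h4i differ within them.

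The poly(A) signal, AATAAA in capitals, is shown for 4 genes whose annotated transcripts run on to one, from 2 bases before it.
Hist1h1c: ctAATAAAaagcgtttagttttcattca
Hist3h2a: ccAATAAAataagagtacgtgtataacata
Hist1h2br: taAATAAAtttgtttcttctcctgcctcc
Hist2h2be: ttAATAAAgttaccgattagtttc
Hist1h1c and Hist3h2a hold both a stem-loop and, 840 and 1643 bases further on, the end of a longer transcript. Hist1h2br and Hist2h2be have a poly(A) signal and no stem-loop motif. The most abundant gene of all, Hist1h2bc, has neither in its annotated transcript, which is 1156 bases long in 2 exons.

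How well a gene was measured differed between classes, and more widely between the genes of a class. Within H2B, for one, the mean count over 14 libraries ran from 0.929 for the lowest gene to 1769 for Hist1h2bc. Of the classes, H2B and H1 were measured best: the median member had a mean count of 61.4 for H2B and 33.1 for H1. The median member of the other classes had a mean count of 7.43 for H3, 4.57 for H4 and 4.36 for H2A. Under 10 counts on average were held by 1 of 6 H1, 14 of 18 H2A, 4 of 19 H2B, 7 of 12 H3 and 9 of 13 H4 genes, 35 of 68 in all. At least 100 counts were held by 1 H1, 2 H2A, 8 H2B and 1 H4 gene and by no H3 gene. A count of 0 in at least 1 library was seen in 18 genes, and 19 had a mean level under the 0.0502 CPM that a count of 0 allows. The lowest was Hist1h4m, with 1 count in 1 of 14 libraries.

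The spread between replicates, as the SD within groups over the mean, had a median of 34.7% for H1, 36.9% for H2B, 64.4% for H2A, 67.1% for H3 and 70.1% for H4. Counting error alone, taken as the square root of the mean count, gives medians of 17.4% for H1, 12.8% for H2B, 47.9% for H2A, 36.7% for H3 and 46.8% for H4. As a ratio of these medians, the spread exceeded the counting error most for H2B, the class with the highest counts. A spread over 2 times the counting error was found for 9 of 19 H2B, 6 of 12 H3, 5 of 18 H2A, 3 of 6 H1 and 2 of 13 H4 genes. The narrowest spread of any member was that of Hist2h2be, at 20.8%.

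**Figure D1:**
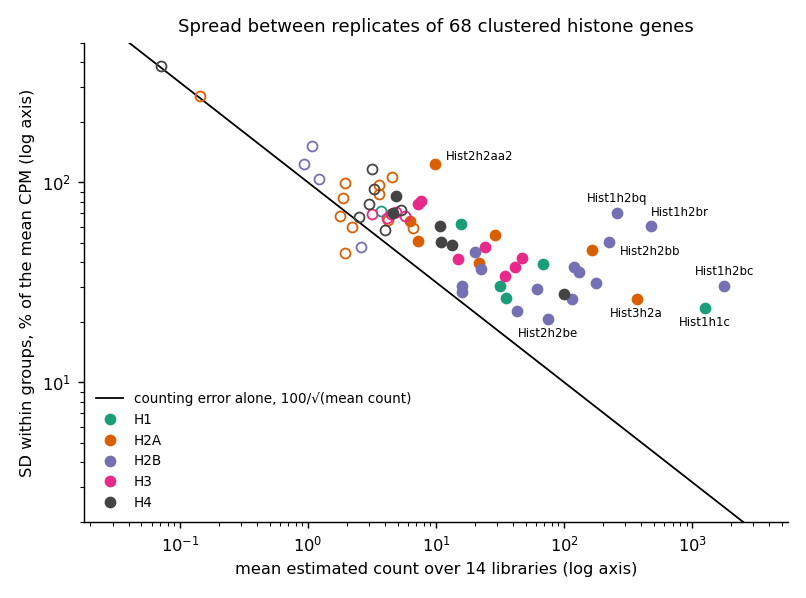
Each point is 1 of the 68 genes, coloured by class, with its mean estimated count over 14 libraries (x, log axis) and the SD within groups as a percent of its mean CPM (y, log axis). Filled points passed the filter for testing, and the line is counting error alone. Points at low counts lie near the line, while Hist1h2bq, Hist1h2br, Hist2h2bb, Hist1h2bc and Hist1h1c lie far above it at 223 to 1769 counts.

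The filter on low counts (edgeR's filterByExpr, minimum count 10) left 40 of the 68 genes to test: 5 H1, 7 H2A, 15 H2B, 7 H3 and 6 H4. A gene that is high in a single group can pass that filter, so the 40 stand for the better-measured members only. Their median biological coefficient of variation was 0.34, against 0.19 for all 15666 genes tested. Set against the trend at their own abundance, however, the members did not stand apart, with a median ratio of 0.66 against 0.65 for all genes. The widest for its abundance was Hist1h2bq, at 4.18 times the trend, followed by Hist1h2br at 1.64, Hist1h2bc at 1.38, Hist2h2bb at 1.36 and Hist2h2aa2 at 1.36.

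Several of these genes share sequence with a copy, so that the authors' counting could split reads between them. Over 50% of the 50-base windows of the transcript occurred in another gene for 34 of the 68 genes, 14 of 18 H2A, 8 of 19 H2B, 8 of 12 H3, 4 of 13 H4 and 0 of 6 H1. Any other annotated gene was counted, on either strand. These shares therefore take in genes that overlap the member in place as well as copies elsewhere. All 18 H2A genes overlap an exon of another annotated gene, and 24 of the 68 do. The kit does not mark strand, so reads of overlapping genes on opposite strands cannot be told apart. Hist2h2aa1 and Hist2h2aa2 shared all their windows with another gene, and Hist1h2bq and Hist1h2br shared 97.3 and 88.5% of theirs. Counted over all its transcripts, the gene sharing most was Gm20633 for Hist2h2aa1 and Gm20632 for Hist2h2aa2. Each overlaps its histone gene on the opposite strand. For Hist1h2bq and Hist1h2br it was the other gene of the pair.

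The split between such copies moved from library to library. Hist2h2aa1 stood at 1.08, 1.55 and 1.3 in KO-GS against 2.71, 4.83, 3.01 and 2.4 in KO-NT libraries, and at 0.224, 0.686 and 1.25 in WT-GS against 0.998, 2.32, 4.09 and 2.6 in WT-NT libraries, all in CPM. Hist2h2aa2 stood at 0.188, 0.0475 and 0.0861 in KO-GS against 0.0391, 0.0258, 0.0649 and 0.0546 in KO-NT libraries, and at 0.495, 0.719 and 0.0117 in WT-GS against 0.0137, 0.0224, 0.081 and 0.0222 in WT-NT libraries, all in CPM. Hist2h2aa2 thus held more counts than its copy in WT-GS 1 and 2 and few in the other libraries. With the copies added up, the levels were 1.27, 1.60 and 1.39 CPM in KO-GS, against 2.75, 4.85, 3.08 and 2.46 CPM in KO-NT. They were 0.719, 1.41 and 1.27 CPM in WT-GS, against 1.01, 2.35, 4.17 and 2.62 CPM in WT-NT. The starved libraries lay below all normal-medium libraries in SirT7-/- cells, while the wild-type groups overlapped.

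Hist1h2bq stood at 4.75, 1.11 and 5.62 in KO-GS against 0, 2.5, 0 and 4.29 in KO-NT libraries, and at 5.44, 4.27 and 4.97 in WT-GS against 2.26, 2.28, 0 and 6.69 in WT-NT libraries, all in CPM. The libraries KO-NT 1, KO-NT 3 and WT-NT 3 thus hold 0 for it, although Hist1h2br was counted there. Hist1h2br stood at 6.21, 2.55 and 9.66 in KO-GS against 2.97, 3.89, 2.41 and 9.79 in KO-NT libraries, and at 8.76, 6.21 and 7.61 in WT-GS against 2.99, 4.23, 2.07 and 11.7 in WT-NT libraries, all in CPM. Added up, the H2B pair stood at 11.0, 3.66 and 15.3 CPM in KO-GS, against 2.97, 6.39, 2.41 and 14.1 CPM in KO-NT. It stood at 14.2, 10.5 and 12.6 CPM in WT-GS, against 5.25, 6.51, 2.07 and 18.4 CPM in WT-NT. The pair overlapped between the media in both genotypes.

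**Figure D2:**
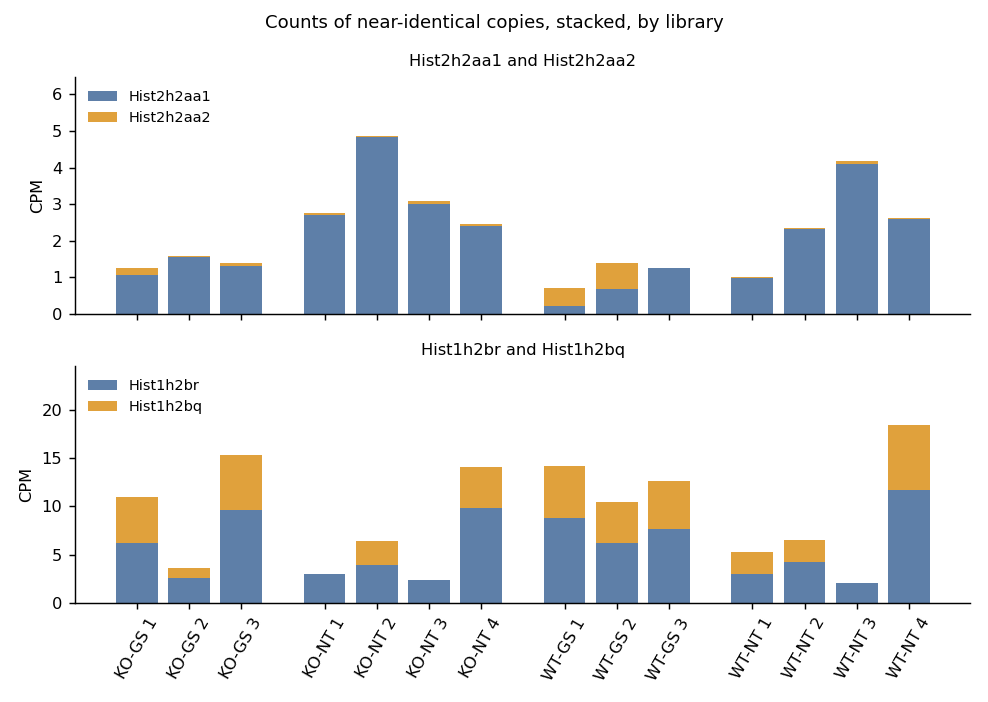
Stacked CPM of 2 pairs of near-identical copies in each of the 14 libraries, by group. The share of Hist2h2aa2 is visible mainly in WT-GS 1 and 2, and that of Hist1h2bq is missing in KO-NT 1, KO-NT 3 and WT-NT 3.

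By level, H2B led. Averaged over 14 libraries, the summed levels were 44.2 CPM for H2B, 17.9 for H1, 8.02 for H2A, 2.52 for H3 and 2.12 for H4, of 74.7 CPM in all. H2B therefore held 59.1% of the histone CPM, H1 23.9%, H2A 10.7%, H3 3.38% and H4 2.84%. H2B lay above H1, and H1 above H2A, in 14 of 14 libraries. H3 and H4, which pack DNA in equal amounts with H2A and H2B, were not to be ranked: H3 was above H4 in 12 libraries in CPM and in 4 once levels were divided by length. Per kb of coding sequence, the summed levels were 116.8 CPM for H2B, 28.0 for H1, 20.6 for H2A, 6.86 for H4 and 6.18 for H3. On that scale H1 exceeded H2A in 13 of 14 libraries.

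Few genes carried each class other than H3. Hist1h1c alone held 89.1% of the H1 level, Hist1h4i 60.2% of H4, Hist3h2a 57.1% of H2A, Hist1h2bc 50.7% of H2B and Hist2h3c1 23.0% of H3. Hist1h2bc and Hist1h1c together made up 51.3% of all clustered histone CPM. The 18 genes with an annotated transcript of at least 1000 bases held 77.3% of the histone counts. Their median level was 1.28 CPM per kb of coding sequence, against 0.22 for the 50 shorter ones. Counts can come from the whole transcript, so dividing by coding length alone favours genes with long transcripts. The 15 genes with a poly(A) signal at an annotated end held 44.5% of the counts. The 46 genes with a stem-loop motif held 48.0%.

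**Figure D3:**
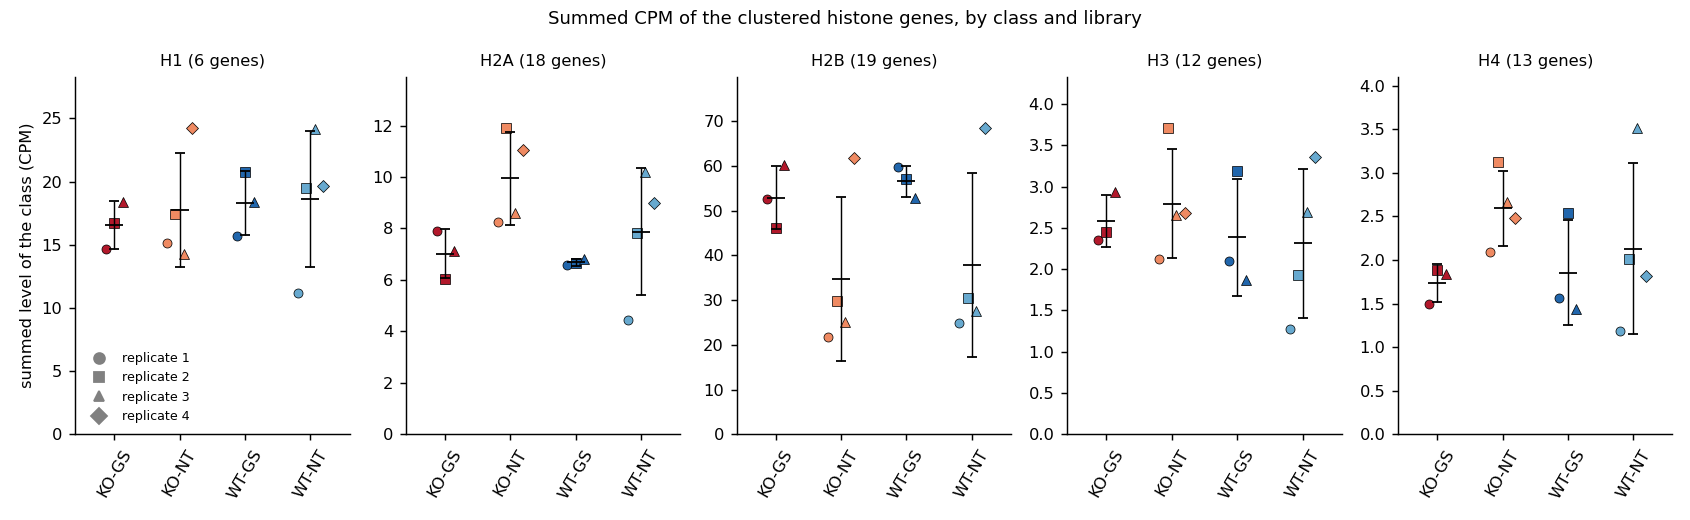
Summed CPM of each class in each library, by group, with the group mean and SD as bars. In H2B the libraries KO-NT 1 to 3 and WT-NT 1 to 3 sit between 21.9 and 30.5 CPM and the other 8 between 46.0 and 68.4 CPM.

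The first comparison asks what 18 hours without glucose did to these genes in each genotype. In wild type, edgeR's quasi-likelihood test with Benjamini-Hochberg adjustment called 4 of the 40 members, while 25.9% of all 15666 genes were called. Hist2h2aa2, Hist1h2ab and Hist1h3b rose and Hist2h2aa1 fell. Hist2h2aa2 passed the filter through starved libraries alone, so its call is not used, and it is a near-identical copy of Hist2h2aa1. With the copies added up, 2 of 38 members were called, both higher. The share of 4 of 40 was below the background. The 40 members had a median log2 change of 0.10 (23 above 0 and 17 below), against -0.04 for all genes. In SirT7-/- cells edgeR called 0 of 40 members and 0% of all genes. There, 4 members had an unadjusted p under 0.05 in edgeR, and 0 members were called by DESeq2 (1.59% of all genes called) and by limma-voom (0%).

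The number of wild-type calls moved with single libraries, for the members and for all genes together. It was 0 members without WT-GS 1, WT-GS 2, WT-GS 3 or WT-NT 3, where 0, 0, 0.00628 and 0% of all genes were called. It was 1 member without WT-NT 2 (13.2% of all genes), 2 without WT-NT 1 (8.77%) and 7 without WT-NT 4 (31.1%). Leaving out 1 library gave log2 changes of 1.62 to 2.10 for Hist1h2ab and 1.15 to 1.89 for Hist1h3b. Both genes were picked by their calls in these same libraries, so the kept direction is no separate support. Without the 2 discordant libraries, 44 members could be tested. Then edgeR called 6 in wild type, 5 higher and 1 lower, against 39.6% of 15864 genes. With the copies also added up, 4 were called there, all higher, against 39.5%. In SirT7-/- cells edgeR called 3 without the 2 libraries, 2 higher and 1 lower, against 33.1%. The lower one, Hist1h2ap, reached the level needed for testing in 2 KO-NT libraries alone, so its call is not used. In that fit Hist1h2bc and Hist2h2bb rose in both genotypes.

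**Figure D4:**
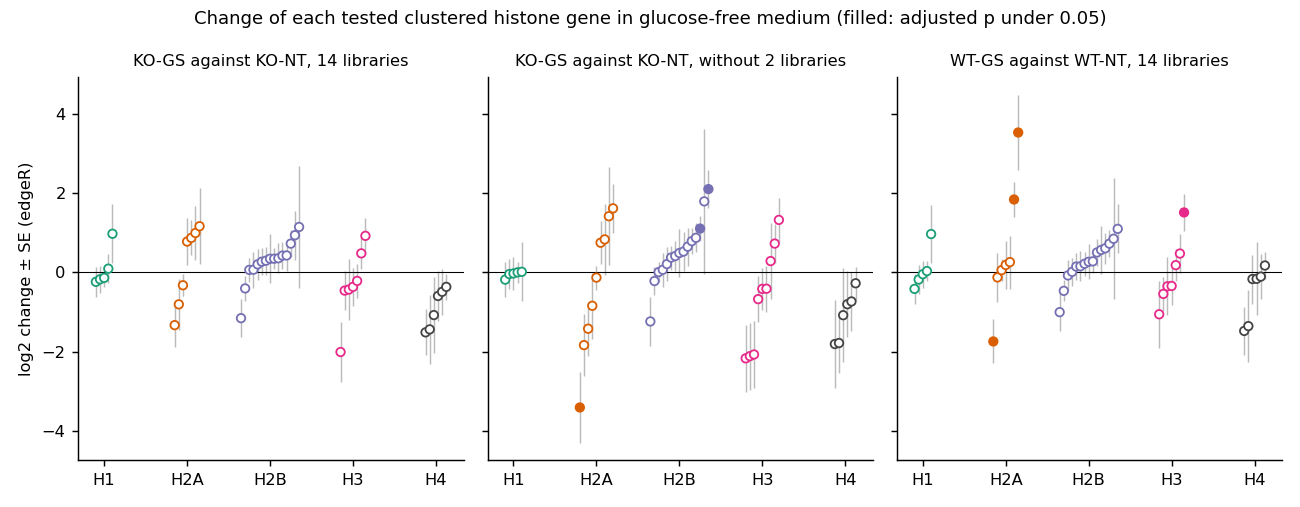
Log2 change in glucose-free against normal medium of each tested member, by class, with its SE. Panels show KO-GS against KO-NT in all 14 libraries and without the discordant KO-GS 3 and KO-NT 4, then WT-GS against WT-NT in all 14. Filled points passed an adjusted p of 0.05: 0, 3 and 4 genes. Most H2B points lie above 0 and most H4 points below.

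H1 genes encode the linker histones, and the class showed no call. Hist1h1c, the main H1 gene, stood at 13.3, 14.8 and 16.2 in KO-GS against 13.5, 15.8, 12.8 and 22 in KO-NT libraries, and at 13.9, 18.9 and 16.2 in WT-GS against 9.61, 17.7, 21 and 17.2 in WT-NT libraries, all in CPM. The groups overlapped, with log2 changes of -0.14 ± 0.24 (SE) in SirT7-/- and 0.04 ± 0.24 in wild-type cells. Hist1h1d stood at 0.614, 0.712 and 0.775 in KO-GS against 0.716, 0.773, 0.532 and 1.23 in KO-NT libraries, and at 0.755, 0.569 and 1.01 in WT-GS against 0.697, 0.943, 1.8 and 0.856 in WT-NT libraries, all in CPM. Hist1h1a, the H1 gene with the widest spread for its abundance, stood at 0.1, 0.269 and 0.48 in KO-GS against 0.221, 0.142, 0.182 and 0.0218 in KO-NT libraries, and at 0.248, 0.435 and 0.164 in WT-GS against 0.041, 0.112, 0.162 and 0.267 in WT-NT libraries, all in CPM. These counts ran from 2 to 39, and the groups overlapped in both genotypes. Hist1h1t, the testis linker histone, had at most 8 counts and was 0 in 3 libraries. The median change of the 5 tested H1 genes was -0.14 in SirT7-/- and -0.04 in wild-type cells on the log2 scale.

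H2A held 3 of the 4 wild-type calls, but those of the copies Hist2h2aa1 and Hist2h2aa2 did not remain once these were added up. Hist1h2ab stood at 0.163, 0.538 and 0.369 in KO-GS against 0.169, 0.232, 0.221 and 0.142 in KO-NT libraries, and at 0.472, 0.686 and 0.411 in WT-GS against 0.109, 0.112, 0.149 and 0.222 in WT-NT libraries, all in CPM. The 3 WT-GS libraries lay above all 4 WT-NT libraries, at a mean of 0.523 ± 0.145 CPM against 0.148 ± 0.0526 CPM (SD), and edgeR gave a log2 change of 1.84 ± 0.44 (SE, adjusted p = 0.025). In SirT7-/- cells the groups overlapped (edgeR log2 change 0.87 ± 0.44, adjusted p = 0.29). Hist2h2aa2 rose by 3.53 ± 0.96 on the log2 scale in wild type and Hist2h2aa1, its copy, fell by 1.74 ± 0.56 (edgeR adjusted p = 0.040). WT-GS 3 was the lowest wild-type library for Hist2h2aa2, so the groups overlapped for that gene. Hist2h2aa2 reached the 0.127 CPM needed for testing in KO-GS 1, WT-GS 1 and WT-GS 2 alone. The filter thus admitted it through starved libraries, so its values are a description and its test is not used. The per-library values of the pair are given above, and with the copies added up neither call remained: edgeR gave -1.12 ± 0.42 in wild type (adjusted p = 0.065) and -1.24 ± 0.42 in SirT7-/- cells (adjusted p = 0.23). Over the alternatives the adjusted p ran from 0.0023 to 0.079 for Hist1h2ab and from 0.0068 to 0.11 for Hist2h2aa1.

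Hist3h2a, the most abundant H2A gene, stood at 5.78, 2.82 and 4.5 in KO-GS against 4.42, 5.33, 4.27 and 7.43 in KO-NT libraries, and at 4.55, 3.6 and 4.59 in WT-GS against 2.78, 4.5, 4.61 and 4.95 in WT-NT libraries, all in CPM. The groups overlapped in both genotypes, with edgeR log2 changes of -0.32 ± 0.28 (adjusted p = 0.51) in SirT7-/- and 0.06 ± 0.27 (adjusted p = 0.88) in wild-type cells. It overlaps an exon of Trim17 on the same strand. Hist1h2ap was too low to be tested in all 14 libraries. It had 1, 1 and 1 counts in KO-GS, against 5, 21, 12 and 2 in KO-NT, and 1, 1 and 2 counts in WT-GS, against 3, 3, 4 and 6 in WT-NT. KO-NT 2 and 3 held the most. It entered the fit without the 2 discordant libraries only through them, the group in which it is high, and its test there is not used.

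The H2B sum varied widely between libraries of the same group, and its leading genes were high in the same libraries. The summed level was 52.5, 46.0 and 60.2 CPM in KO-GS, against 21.9, 29.9, 25.2 and 61.7 CPM in KO-NT. In wild type it was 59.7, 57.1 and 52.9 CPM in WT-GS, against 25.0, 30.5, 27.5 and 68.4 CPM in WT-NT. Replicates 1 to 3 of both normal-medium groups were thus below all starved libraries, and replicate 4 of both was above them. KO-GS 3 was as high as KO-GS 1 and 2, although its Hspa5 level was that of normal medium. Of the 15 tested H2B genes, 13 had a positive log2 change in SirT7-/- cells (median 0.35) and 12 in wild type (median 0.27), against medians of 0.01 and -0.04 over all genes. None of the 15 was called in this fit.

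Hist1h2bc, the most abundant member of all, stood at 26.3, 28.6 and 29.4 in KO-GS against 10.5, 14.6, 13 and 28.8 in KO-NT libraries, and at 30.4, 31.5 and 26.5 in WT-GS against 12, 14.4, 15.5 and 31.6 in WT-NT libraries, all in CPM. The same libraries were high as in the sum, and KO-NT 4 and WT-NT 4 lay among the starved ones. edgeR gave log2 changes of 0.73 ± 0.34 (SE) in SirT7-/- (adjusted p = 0.27) and 0.73 ± 0.34 in wild-type cells (adjusted p = 0.12). Without the 2 discordant libraries these were 1.11 ± 0.32 (edgeR adjusted p = 0.023) and 0.75 ± 0.27 (edgeR adjusted p = 0.047).

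Hist2h2bb stood at 4.73, 3.5 and 3.23 in KO-GS against 1.07, 0.721, 1.06 and 5.02 in KO-NT libraries, and at 4.2, 4.28 and 3.64 in WT-GS against 1.18, 1.02, 1.55 and 4.03 in WT-NT libraries, all in CPM. KO-NT 4 and WT-NT 4 again stood with the starved libraries. The changes were 0.94 ± 0.62 in SirT7-/- (edgeR adjusted p = 0.40) and 1.10 ± 0.62 in wild-type cells (edgeR adjusted p = 0.19). Without the 2 discordant libraries they were 2.11 ± 0.49 (edgeR adjusted p = 0.0081) and 1.13 ± 0.41 (edgeR adjusted p = 0.047). Hist2h2bb was singled out after its values were seen. Its 381-base transcript is covered in full by windows of Gm20628, which lies on the opposite strand, and it overlaps Gm42743 on the same strand, so its reads may belong to a neighbour.

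Of the shorter H2B genes with a stem-loop, Hist1h2bk stood at 2.64, 2.53 and 2.83 in KO-GS against 1.34, 1.39, 1.74 and 3.36 in KO-NT libraries, and at 2.68, 2.41 and 2.52 in WT-GS against 1.26, 1.63, 1.45 and 3.05 in WT-NT libraries, all in CPM. Both NT 4 libraries were the highest of all 14. edgeR gave log2 changes of 0.43 ± 0.35 in SirT7-/- (adjusted p = 0.49) and 0.51 ± 0.35 in wild-type cells (adjusted p = 0.27). They were 0.79 ± 0.33 (edgeR adjusted p = 0.087) and 0.53 ± 0.27 (edgeR adjusted p = 0.15) without the 2 discordant libraries. Hist1h2bh, also H2B, lay the other way and was not called. It averaged 0.150 ± 0.041 CPM in KO-GS and 0.330 ± 0.091 in KO-NT, and 0.150 ± 0.032 in WT-GS and 0.314 ± 0.176 in WT-NT (SD). Its log2 change was -1.15 in SirT7-/- cells, with edgeR adjusted p of 0.25 there and 0.13 in wild type.

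Genes of DNA replication ran the other way across the same libraries. The summed level of 32 listed S phase genes was 1106, 1331 and 1319 CPM in KO-GS, against 1935, 1768, 1855 and 1231 CPM in KO-NT. It was 1059, 1168 and 1186 CPM in WT-GS, against 1781, 1748, 1694 and 1266 CPM in WT-NT. The 6 libraries low in H2B were the 6 with the most S phase RNA, and KO-NT 4, WT-NT 4 and KO-GS 3 were high in H2B and low in S phase genes. Libraries share their depth scaling in both sums, the samples fall into separate clusters, and no pooled correlation was computed. The part of cell cycle state, cell density or batch in the H2B levels was not tested, and the labels name no batch.

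**Figure D5:**
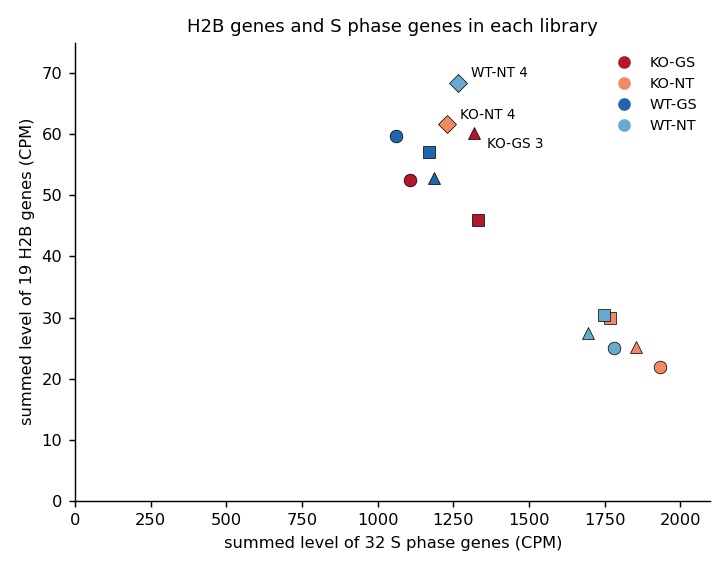
Each point is a library, with the summed CPM of 32 S phase genes (x) against that of 19 H2B genes (y). Colours are groups and marker shapes are replicate numbers. KO-NT 1 to 3 and WT-NT 1 to 3 lie at the lower right, and KO-NT 4, WT-NT 4 and KO-GS 3 lie with the starved libraries at the upper left.

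Promoter motifs differed by class. In RefSeq promoter windows of 250 bases before to 50 after the start (GRCm38.p6), matched for 61 of 68 genes, the octamer ATTTGCAT was present on either strand in 14 genes: 7 of 17 H2A, 7 of 16 H2B and 0 H1, H3 or H4 genes. It occurred in 1.74% of all 32851 windows. CCAAT, searched on both strands, was present in 52 of 61, but in only 3 of 12 H4 genes, against 37.4% of all windows. TATAAA was present in 35 of 61, against 13.6%. Among the tested H2B genes, the median log2 change in SirT7-/- cells without the 2 discordant libraries was 0.21 for 5 genes with the octamer and 0.51 for 8 without it. The corresponding wild-type medians in all 14 libraries were 0.22 and 0.28.

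The 150 bases before the start are shown for 2 H2B genes that were high in the same libraries and for 1 tested gene each of H2A, H3 and H4, with matches to the octamer, CCAAT and TATAAA in capitals on either strand. A match is a description and not a site of binding. The motifs do not overlap in these windows.
Hist2h2bb: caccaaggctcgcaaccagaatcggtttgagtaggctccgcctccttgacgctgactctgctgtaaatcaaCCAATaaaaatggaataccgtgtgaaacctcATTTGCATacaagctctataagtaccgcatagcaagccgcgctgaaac
Hist1h2bk: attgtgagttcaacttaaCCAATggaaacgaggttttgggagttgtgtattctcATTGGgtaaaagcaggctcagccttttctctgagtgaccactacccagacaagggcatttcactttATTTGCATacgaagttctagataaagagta
Hist1h2ab: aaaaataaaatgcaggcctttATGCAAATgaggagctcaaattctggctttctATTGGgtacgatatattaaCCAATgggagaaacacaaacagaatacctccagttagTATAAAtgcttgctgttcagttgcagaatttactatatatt
Hist1h3b: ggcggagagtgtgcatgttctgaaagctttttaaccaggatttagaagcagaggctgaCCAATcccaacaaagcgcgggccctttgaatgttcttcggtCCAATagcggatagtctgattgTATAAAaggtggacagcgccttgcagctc
Hist1h4k: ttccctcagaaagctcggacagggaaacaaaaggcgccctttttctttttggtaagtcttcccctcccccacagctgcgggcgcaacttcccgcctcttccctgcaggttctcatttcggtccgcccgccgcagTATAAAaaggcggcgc
They lie at chr3:96269550-96269699 (+), chr13:22035671-22035820 (+), chr13:23750938-23751087 (+), chr13:23752195-23752344 (+) and chr13:21750554-21750703 (-) of GRCm38.p6. The octamer begins 48 bases before the RefSeq start in Hist2h2bb, 30 bases before it in Hist1h2bk and 129 bases before it in Hist1h2ab, where it stands reversed as ATGCAAAT. Hist1h3b holds CCAAT at 92 and 51 bases and TATAAA at 29 bases before the start, and Hist1h4k holds TATAAA at 16 bases.

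H3 was spread over many weakly counted genes. Hist2h3c1 stood at 0.401, 0.38 and 0.775 in KO-GS against 0.404, 0.837, 0.623 and 0.764 in KO-NT libraries, and at 0.448, 0.569 and 0.422 in WT-GS against 0.191, 0.494, 0.837 and 0.979 in WT-NT libraries, all in CPM. Hist2h3c2 stood at 0.526, 0.396 and 0.725 in KO-GS against 0.43, 0.863, 0.545 and 0.666 in KO-NT libraries, and at 0.342, 0.418 and 0.293 in WT-GS against 0.219, 0.382, 0.702 and 0.801 in WT-NT libraries, all in CPM. Both overlapped between the media, with edgeR adjusted p of 0.36 to 0.79 in the 2 genotypes. Hist1h3b stood at 0.313, 0.475 and 0.258 in KO-GS against 0.143, 0.116, 0.208 and 0.251 in KO-NT libraries, and at 0.613, 0.886 and 0.317 in WT-GS against 0.15, 0.168, 0.176 and 0.367 in WT-NT libraries, all in CPM. In wild type the mean was 0.605 ± 0.285 CPM in WT-GS and 0.215 ± 0.102 CPM in WT-NT (SD), but WT-NT 4 lay above WT-GS 3. edgeR gave 1.52 ± 0.46 (adjusted p = 0.034), with adjusted p from 0.0063 to 0.13 over the alternatives. In SirT7-/- cells all KO-GS libraries lay above all KO-NT libraries, and edgeR gave 0.92 ± 0.46 (adjusted p = 0.29).

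Hist1h3g, the H3 gene with the widest spread for its abundance, stood at 0.0501, 0.0158 and 0.221 in KO-GS against 0.0391, 0.206, 0.208 and 0.0655 in KO-NT libraries, and at 0.0354, 0.0335 and 0.0469 in WT-GS against 0.0957, 0.0898, 0.054 and 0.1 in WT-NT libraries, all in CPM. Its counts ran from 1 to 18, and KO-GS 3 held the highest of its group. The 7 tested H3 genes had median log2 changes of -0.36 in SirT7-/- and -0.34 in wild-type cells, opposite in sign to Hist1h3b.

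H4 was the lowest class in CPM. Hist1h4i, the only H4 gene with a mean count of 100, stood at 1.08, 1.3 and 1.16 in KO-GS against 1.19, 1.76, 1.35 and 1.66 in KO-NT libraries, and at 1.06, 1.62 and 1.1 in WT-GS against 0.588, 1.04, 1.84 and 1.12 in WT-NT libraries, all in CPM. The groups overlapped, with edgeR changes of -0.36 ± 0.33 (adjusted p = 0.54) in SirT7-/- and 0.18 ± 0.33 (adjusted p = 0.70) in wild-type cells. Hist1h4h stood at 0.113, 0.0949 and 0.184 in KO-GS against 0.13, 0.103, 0.286 and 0.207 in KO-NT libraries, and at 0.248, 0.201 and 0.0586 in WT-GS against 0.109, 0.18, 0.311 and 0.145 in WT-NT libraries, all in CPM. Hist1h4a stood at 0.0125, 0.0791 and 0.0246 in KO-GS against 0.0521, 0.103, 0.13 and 0.0327 in KO-NT libraries, and at 0.0236, 0.134 and 0.0352 in WT-GS against 0.0547, 0.0449, 0.176 and 0.0111 in WT-NT libraries, all in CPM. Hist1h4a had 1 to 13 counts, too few to tell the groups apart at this depth. All 6 tested H4 genes had a negative change in SirT7-/- cells (median -0.83) and 5 of 6 in wild type (median -0.16), with none called. Hist1h4k stood at 0.0751, 0.0633 and 0.0984 in KO-GS against 0.143, 0.348, 0.234 and 0.175 in KO-NT libraries, and at 0.0354, 0.0669 and 0.0586 in WT-GS against 0.0957, 0.0898, 0.338 and 0.1 in WT-NT libraries, all in CPM. It is shown outside the rule for values in every library, and had the most negative change of the 6 tested H4 genes in both genotypes. With 3 to 27 counts edgeR gave -1.51 ± 0.58 (adjusted p = 0.24) in SirT7-/- and -1.48 ± 0.61 (adjusted p = 0.083) in wild-type cells.

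The second comparison asks how loss of SirT7 bears on these genes. No clustered histone gene was called in SirT7-/- against wild-type cells. In normal medium edgeR called 0 of 40 members and 0.00638% of all genes, with 0 members at an unadjusted p under 0.05, and the median log2 change of the members was 0.05 against 0.01 for all genes. In glucose-free medium it called 0 of 40 and 0.00638% of all genes, again with 0 at an unadjusted p under 0.05, and the members' median was -0.11 against 0.02. DESeq2 called 0 members in both (0.147 and 0.0447% of all genes called), as did limma-voom (0.0191 and 0.00638%). By class, the medians in normal medium were -0.11 for H1, 0.38 for H2A, -0.09 for H2B, 0.28 for H3 and 0.26 for H4. In glucose-free medium they were -0.18, -0.01, -0.05, 0.08 and -0.26 in the same order. Without the 2 discordant libraries the medians in normal medium were -0.30 for H1, 0.42 for H2A, -0.33 for H2B, 0.45 for H3 and 0.40 for H4, and 14 of 15 H2B genes had a negative change. In glucose-free medium they were then -0.32, -0.05, -0.14, -0.23 and -0.30. The H2B median in normal medium was -0.32 without KO-NT 4 alone and 0.20 without WT-NT 4 alone, so its sign turns on those libraries.

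The difference between the genotypes' responses to starvation was called for 0 of 40 members by edgeR, DESeq2 and limma-voom. Of all genes, 0% were called by edgeR and limma-voom and 0.0319% by DESeq2, and in edgeR 1 member, Hist2h2be, had an unadjusted p under 0.05 (0.81 ± 0.37 on the log2 scale, adjusted p = 0.68). Hist2h2be stood at 0.902, 0.902 and 1.49 in KO-GS against 0.977, 0.863, 0.844 and 0.71 in KO-NT libraries, and at 0.955, 0.702 and 0.622 in WT-GS against 0.903, 1.04, 1.12 and 1.26 in WT-NT libraries, all in CPM. Its groups overlapped in both genotypes. Without the 2 discordant libraries, edgeR also called 0 members in these 3 comparisons, with 4, 0 and 1 at an unadjusted p under 0.05, against 0.0252, 0.0063 and 0% of all genes called. A p above the threshold does not show that the genotypes were alike. The 2 starvation comparisons and the 2 genotype comparisons share groups with each other, so their values stand side by side and were not correlated.

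Histone genes outside the clusters, most of which give polyadenylated mRNAs through the cell cycle, went down in starved wild-type cells. Of 11 measured replication-independent histone genes, 9 fell and 0 rose in WT-GS (median log2 change -1.10), against 25.9% of all genes called. In SirT7-/- cells 0 of 11 were called in all 14 libraries (median -0.86). Without the 2 discordant libraries 9 fell there (median -1.24), against 33.1% of all genes called. H2afz, an H2A variant placed at gene starts, averaged 103 ± 20.1 CPM in KO-GS and 189 ± 53.5 in KO-NT, and 83.5 ± 5.59 in WT-GS and 185 ± 54.4 in WT-NT (SD). edgeR gave -0.91 (adjusted p = 0.23) in SirT7-/- and -1.10 ± 0.28 (adjusted p = 0.025) in wild-type cells. H2afx, the variant phosphorylated at DNA breaks, holds the stem-loop motif and no poly(A) signal at an annotated end. It stood at 10.6, 12.2 and 21.4 CPM in KO-GS, against 32.9, 38.7, 34.4 and 11.9 CPM in KO-NT. In wild type it averaged 11.4 ± 1.26 CPM in WT-GS and 28.8 ± 6.48 in WT-NT (SD). It fell by 1.30 on the log2 scale in wild type (edgeR adjusted p = 0.030).

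H3f3a and H3f3b, which encode the replacement histone H3.3, fell in wild type by 0.51 (edgeR adjusted p = 0.025) and 0.56 (edgeR adjusted p = 0.038) on the log2 scale. H3f3b averaged 285 ± 25.3 CPM in KO-GS and 417 ± 57.6 in KO-NT, and 265 ± 25.3 in WT-GS and 403 ± 90.1 in WT-NT. H1f0, a linker histone of resting cells, fell by 1.02 in wild type (edgeR adjusted p = 0.025).

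Genes of the machinery for histone mRNA were called in wild type in some cases. Their counts are to be read against the 25.9% of all genes called there. Of 25 genes of histone 3′ end processing and decay, 1 rose and 4 fell in wild type (median -0.07), and 0 were called in SirT7-/- cells. Slbp averaged 30.7 ± 1.20 CPM in KO-GS and 34.2 ± 3.01 in KO-NT, and 29.6 ± 0.781 in WT-GS and 35.8 ± 2.77 in WT-NT (edgeR adjusted p = 0.31 in SirT7-/- and 0.085 in wild type). Of 14 genes of histone gene transcription, 1 rose and 5 fell in wild type (median 0.06) and 0 were called in SirT7-/- cells. The 1 that rose was Npat, the coactivator of histone genes in S phase, at 0.34 ± 0.11 (edgeR adjusted p = 0.039). Cdk2, the kinase that activates Npat, fell by 0.66 (edgeR adjusted p = 0.028).

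Among all genes, edgeR called 25.9% in wild type and 0% in SirT7-/- cells, against which the next counts are to be read. Of 20 histone chaperones, 5 fell and 0 rose in wild type (median -0.21), and 0 were called in SirT7-/- cells. Nasp, which carries H1 and H3 with H4, fell by 1.09, and Chaf1a, of the chromatin assembly factor at the replication fork, fell by 0.84 (edgeR adjusted p = 0.026 and 0.025). Of the 32 S phase genes, 11 fell and 0 rose in wild type (median -0.44), and 0 were called in SirT7-/- cells (median -0.44). Pcna, the sliding clamp of DNA polymerase, fell by 0.42 in wild type (edgeR adjusted p = 0.048). Without the 2 discordant libraries, 12 of the 32 fell in SirT7-/- cells, where 33.1% of all genes were called. All these lists were chosen with earlier results of these data known.

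RNAs that have no poly(A) tail give a measure of what the library preparation let through. Rmrp and Rpph1, the RNA parts of the RNase MRP and P enzymes, averaged 0.16 CPM each and reached at most 0.592 and 0.449 CPM. Terc, Rnu11, Rnu12 and Rnu73b stayed at or under 0.067 CPM. Malat1, whose end is protected by a triple helix over a genomic A-rich tract, was at 2571 to 4940 CPM. The RNAs named here are not the whole list, and some of its entries were absent from the gene table. The list summed to more than Malat1 and the low RNAs above, so a further member was well counted and is not named. The low values therefore do not stand for every RNA without a poly(A) tail.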

How the data were processed

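Gene-level RNA counts of 14 libraries in 4 groups were used. Per the submitters' processing notes, the authors used StringTie 1.3.3, HISAT2 2.1.0, SAMtools, Trimmomatic 0.36 and FastQC 0.11.3, with mm9 as the genome build; the annotation, read length and strand setting are not given in the sources used here. The deposited table holds estimated counts, written as whole numbers, for 24015 gene symbols, of which 27 are dates in place of a symbol. It was used without further scaling. StringTie derives counts from coverage, so the counting error given is a guide only.

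Levels are CPM of the library total. Changes came from edgeR 4.0.16 (R 4.3.3; TMM, robust quasi-likelihood F-test, filterByExpr with minimum count 10 and minimum total 15, group means over all 14 libraries), adjusted by Benjamini-Hochberg over all 15666 tested genes, and called at an adjusted p under 0.05. The SE was worked back from the F statistic and shares its spread over all libraries. A positive change means higher in glucose-free medium or in SirT7-/- cells. Counts as small as those of most members limit the precision of their values.

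Annotation features came from GENCODE M21 transcripts (GRCm38) and RefSeq promoter windows (GRCm38.p6), which is another build than the authors', and were matched by symbol: 68 of 68 genes in GENCODE and 61 in the promoter table. Windows of 50 bases measured sequence shared with any other annotated gene, on either strand. Levels per kb use the coding length.

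No pair among 18 within-group pairs agreed within sampling noise (chi-square per gene of at least 34.0). The fit was tested on simulated data. The members, lists and the alternative without the discordant KO-GS 3 and KO-NT 4 were chosen with earlier results of these data known. Values in every library are given for the 2 most abundant genes of each class, every gene called in all 14 libraries and the gene of each class with the widest spread over the trend. The values of Hist2h2bb, Hist1h2bk, Hist1h2bh, Hist1h4k, Hist2h2be and Hist1h2ap are given outside this rule. From the other lists, a few genes fixed by name and up to 3 per list and comparison with the smallest p are named. The alternatives were DESeq2 1.42.0, limma-voom (limma 3.58.1), other normalizations and filters, a fit on the groups compared, a replicate block, leaving out each library, and, added after the data were seen, adding up copies and leaving out WT-NT 4 as well.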

Additional observations from a re-analysis of the deposited data

Results flagged for a closer look

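In 48 groups of 4 libraries checked, 4 held a value that lay far from the other 3. Some of the genes checked had been picked for a wide spread or after their values were seen, and the H2B sum contains some of them. No rate expected by chance is therefore set beside this count. The summed H2B level of WT-NT 4 was 68.4 CPM, against 25.0 to 30.5 CPM in the other WT-NT libraries. Hist2h2bb stood at 5.02 CPM in KO-NT 4, against 0.721 to 1.07 CPM in the other KO-NT libraries. Hist1h3b stood at 0.367 CPM in WT-NT 4, against 0.150 to 0.176 CPM in the other WT-NT libraries. Hist2h2aa2 stood at 0.0810 CPM, or 6 counts, in WT-NT 3, against 0.0137 to 0.0224 CPM in the other WT-NT libraries. What sets these libraries apart was not tested. KO-NT 4 and WT-NT 4 are also the NT libraries with the lowest summed S phase level, at 1231 and 1266 CPM.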

How the results depend on the processing

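The count of called members in wild type was 4 under DESeq2 (36.6% of all genes called), RLE normalization (26.1%), library size alone (25.5%) and no filter (17.0%), and 3 under limma-voom (23.1%). It was 1 under the stricter filter, with 12 members left (32.6%), 2 with only the groups compared (33.8%), 2 with the copies added up (25.9%), and 6 without the discordant KO-GS 3 and KO-NT 4 (39.6%). In SirT7-/- cells it was 3 without those 2 libraries (33.1%), also with the copies added up (32.7%), and 0 otherwise apart from the fits below. Leaving out WT-NT 4 as well gave 9 members in wild type (47.3%) and 6 in SirT7-/- cells (39.9%). WT-NT 4 was picked for its high H2B and low S phase levels, so those counts depend on the outcome and support nothing. Leaving out 1 library gave 0 to 7 in wild type and 0 to 3 in SirT7-/- cells. In the other 3 comparisons it was 0 under every setting run.

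With replicate number as a block, 9 members were called in wild type (42.3% of all genes) and 4 in SirT7-/- cells (19.8%). The H2B genes Hist1h2bc, Hist2h2bb, Hist1h2bk and Hist1h2bl were called higher in both genotypes and Hist1h2br in wild type. The edgeR adjusted p was 0.00062 for Hist1h2bc and 0.0011 for Hist2h2bb in wild type, and 0.0012 and 0.0024 in SirT7-/- cells. Replicate 4 exists only in the normal-medium groups, so the block takes the high H2B levels of KO-NT 4 and WT-NT 4 out of the starvation changes. The wild-type log2 change of Hist1h2bc was 1.12 under the block and 1.13 without KO-NT 4, KO-GS 3 and WT-NT 4. The blocked H2B calls are therefore no separate support. Of 19 same-numbered pairs 9 correlated above 0.1, with r from -0.12 to 0.46 over all 19. The best correlation was with the same number for 5 of 14 libraries. These values do not settle whether the numbers pair the libraries. Under the block the log2 changes of Hist2h3c1 and Hist1h4h were 0.026 and 0.026 in wild type.

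The median log2 change of H2A in SirT7-/- cells was -1.10 with no filter, -0.81 under the stricter filter, 0.24 with the groups compared, 0.23 with copies added up, -0.13 without the 2 libraries, -0.52 with both, and -0.48 without WT-NT 4 as well, and -0.72 to 0.79 leaving out 1 library. In wild type H2A was -0.61 with no filter and -0.85 under the stricter filter (-0.78 to 0.44 leaving out 1), H4 was -1.35 with no filter (-1.01 to 0.21) and H3 was 0.18 with only the groups compared (-0.62 to 0.13). Without KO-NT 4, KO-GS 3 and WT-NT 4, H3 was 0.78 in KO-NT against WT-NT and -0.64 for the difference of responses (-0.43 to 0.27 leaving out 1). H3 ranked 4 and H4 5 by summed CPM, the reverse of the order per kb. The causes were not tested.

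Some uncalled genes changed sign, and not all of them were near 0. Hist1h1c was -0.0078 in wild type with library size alone, and 0.0033 in SirT7-/- cells without the 2 libraries and 0.0034 without WT-NT 4 as well. Hist1h1a was 0.98 in SirT7-/- cells in all 14 libraries and -0.011 with copies added up and the 2 libraries left out. Hist1h4a was 0.024 in wild type under limma-voom. Leaving out 1 library, wild-type changes ran over -0.14 to 0.18 for Hist1h1c, -0.086 to 0.17 for Hist3h2a, -0.031 to 0.50 for Hist1h4i, -0.51 to 0.31 for Hist1h4h and -1.17 to 0.25 for Hist1h4a. In SirT7-/- cells they ran over -0.22 to 0.044 for Hist1h1c, -0.39 to 0.024 for Hist1h1d, -0.14 to 0.95 for Hist1h2br and -1.91 to 0.036 for Hist1h3g. Depth limits the H2A, H3 and H4 genes most.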
